A study of Mus musculus with 6 samples.

Results

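Pericytes of the mouse lower abdominal muscle (LAM) were taken as cell barcodes with at least 1000 unique molecular identifiers (UMIs, each standing for 1 captured RNA molecule). A barcode also needed a UMI of at least 2 of Kcnj8, Higd1b, Abcc9 and Cox4i2 and at least 1 UMI of Rgs5. Any UMI of Pecam1 or Cdh5 (endothelial cells), Pdgfra (fibroblasts) or Myh11 (smooth muscle) removed it, and no mitochondrial limit was set. Of 63647 barcodes in the series, 59236 had at least 1000 UMIs and 773 met the rule. The members were chosen by their counts of these 9 genes, so those counts are described here and not tested.

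Pericytes are mural cells that lie on capillaries and small venules inside the basement membrane that they share with the endothelium. They are recruited by platelet-derived growth factor from endothelial cells through the receptor Pdgfrb, and Notch3 signalling helps to maintain them. Their ATP-sensitive potassium channel, made of the pore Kcnj8 and the sulfonylurea receptor Abcc9, links metabolism to membrane potential. Rgs5 damps signalling by G protein-coupled receptors. In skeletal muscle they adjoin the fibres and the arteriolar smooth muscle cells, which carry more of the contractile apparatus.

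The study profiled single cells of LAM from 3 wild-type (WT) and 3 Aromhum male mice by 10x Genomics 3′ sequencing, to compare cell types under raised local estrogen. All mice were 9-10 weeks old, on the FVB/N strain. Aromhum mice carry human CYP19A1, the gene of aromatase, under its own native promoters, so the transgene is not aimed at 1 cell type. The labels give scrotal hernia for the Aromhum mice and control for the WT mice. Each mouse is 1 library, made from enzymatically dissociated muscle after straining and lysis of red cells.

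WT replicates 1 to 3 gave 142, 209 and 96 pericytes and Aromhum replicates 1 to 3 gave 114, 117 and 95, with 253337 to 598232 UMIs summed per mouse. Median UMIs per barcode were 1857, 2021 and 2250.5 in WT and 3258.5, 2885 and 2393 in Aromhum mice, so the 2 ranges did not overlap. Human CYP19A1 was at 0 CPM in all 3 WT mice and at 10.9, 7.53 and 11.3 CPM (UMIs per 1000000 UMIs of the same cells) in the Aromhum pericytes, where 3.37% of barcodes had a UMI. In endothelial cells of the Aromhum mice the share was 0.808%, at a median of 5347.5 UMIs against 2647, and with every barcode thinned to 1000 UMIs the 2 shares were 0.920% and 0.166%. Smooth muscle cells of the Aromhum mice held 27.8 ± 3.88 CPM of CYP19A1 and fibroblasts 8.34 ± 0.644 CPM (SD, n = 3), and endothelial cells held less than either. Of the members, 106 had at least 1% of their UMIs from the marker genes of another cell type or a UMI of a myogenic marker. Fibroblast markers (47 barcodes) and endothelial markers (23) were the most frequent, and smooth muscle markers were not used. These 106 barcodes held 29.2% of the members' UMIs (12.9% to 36.6% by mouse), with a median of 5260 UMIs against 2027 in the other 667. Fibroblast markers, with 10 or 11 of 12 detected in each mouse, summed to 2080.2, 7422 and 10101 CPM in WT replicates 3, 2 and 1 and to 6429, 11921 and 17284 CPM in Aromhum replicates 2, 1 and 3. The genotype results are therefore also given for the 667, an alternative chosen after seeing the data. In the 667, smooth muscle markers summed to 4388, 2569 and 4443 CPM in WT and to 6903, 5821 and 5019 CPM in Aromhum mice, higher in every Aromhum mouse. The part of smooth muscle RNA in the results of the 667 was not tested. No barcode sequence was shared between pericytes of different libraries, and 9 members' sequences also occurred in another library.

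The genes that chose the members fell in the order that the rule set. Rgs5 stood at 6988 ± 1694 CPM (mean ± SD over 6 mice) in pericytes and 2679 ± 967 CPM in smooth muscle cells, the 1617 barcodes with Myh11 and at least 2 other contractile genes. Kcnj8 stood at 744 ± 329 CPM in pericytes against 109 ± 27.4 in smooth muscle cells, 1.96 in 9667 endothelial cells and 14.6 in 14729 fibroblasts. Abcc9 was at 706 ± 190.4 CPM against 105 ± 39.0, 3.38 and 16.8 in the same 3 groups. Higd1b, a hypoxia-inducible mitochondrial protein family member, was at 528 ± 57.7 CPM against 178 ± 103 CPM in smooth muscle cells. Cox4i2, an alternative subunit of cytochrome c oxidase, was at 361 ± 118 against 154 ± 63.1 CPM. Both were under 2 CPM on average in endothelial cells and fibroblasts. Kcnj8 (chr6:142564837-142571614, minus strand, GRCm38) and Abcc9 (chr6:142587862-142702315, minus strand) lie next to each other in the genome.

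By mouse, Kcnj8 read 947, 1112 and 1022 CPM in WT and 408, 339 and 638 CPM in Aromhum pericytes, and Abcc9 read 758, 826 and 963 against 427, 565 and 699.6 CPM. Cox4i2 read 428, 483 and 482 CPM in WT and 249.8, 216 and 307 CPM in Aromhum pericytes. For these 3 genes every Aromhum mouse lay under every WT mouse. The genotypes lay apart, in either direction, in 20.8% of all genes tested. All 3 belong to the rule, and their levels were higher in shallow barcodes. In the 191 members of lowest depth (median 1252 UMIs) they stood at 1600, 1400 and 727 CPM, against 738, 684 and 358 CPM in all members. These 191 were 125 of 447 WT and 66 of 326 Aromhum members. The part of depth and of the rule in these differences was not tested. Higd1b read 444, 475 and 553 against 562, 535 and 598 CPM and Rgs5 6293, 8286 and 9746 against 5135, 6244 and 6226 CPM. The Higd1b ranges lay close, with all but 1 of the 6 mice between 444 and 562 CPM, and for Rgs5 the lowest WT mouse lay just over the highest Aromhum mouse.

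Vtn, Pdgfrb and Notch3, mural markers that the rule did not use, averaged higher in pericytes than in endothelial cells and fibroblasts. Against smooth muscle cells, 11 of 27 such markers tested were higher in pericytes and 6 lower, where 9.76% and 12.2% of all genes were. Vtn (vitronectin), made by pericytes in many tissues, averaged 1069.5 ± 382 CPM in pericytes, 231 ± 63.2 in smooth muscle cells, 6.48 in endothelial cells and 86.6 in fibroblasts. Pdgfrb averaged 594 ± 94.5 CPM against 265 ± 90.0, 4.76 and 93.4, and Notch3 averaged 284 ± 60.6 against 332 ± 47.3, 2.36 and 1.26. Flt1, an endothelial receptor, was at 184 ± 97.0 CPM in pericytes and 704 CPM in endothelial cells. Dcn, which fibroblasts express at 21878 CPM, was at 2885 ± 1553 CPM in pericytes and ranged from 561 to 4677 CPM between mice. In the 667 barcodes Dcn stood at 229 CPM over the pooled barcodes, against 9646 CPM in the 106.

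**Figure D1:**
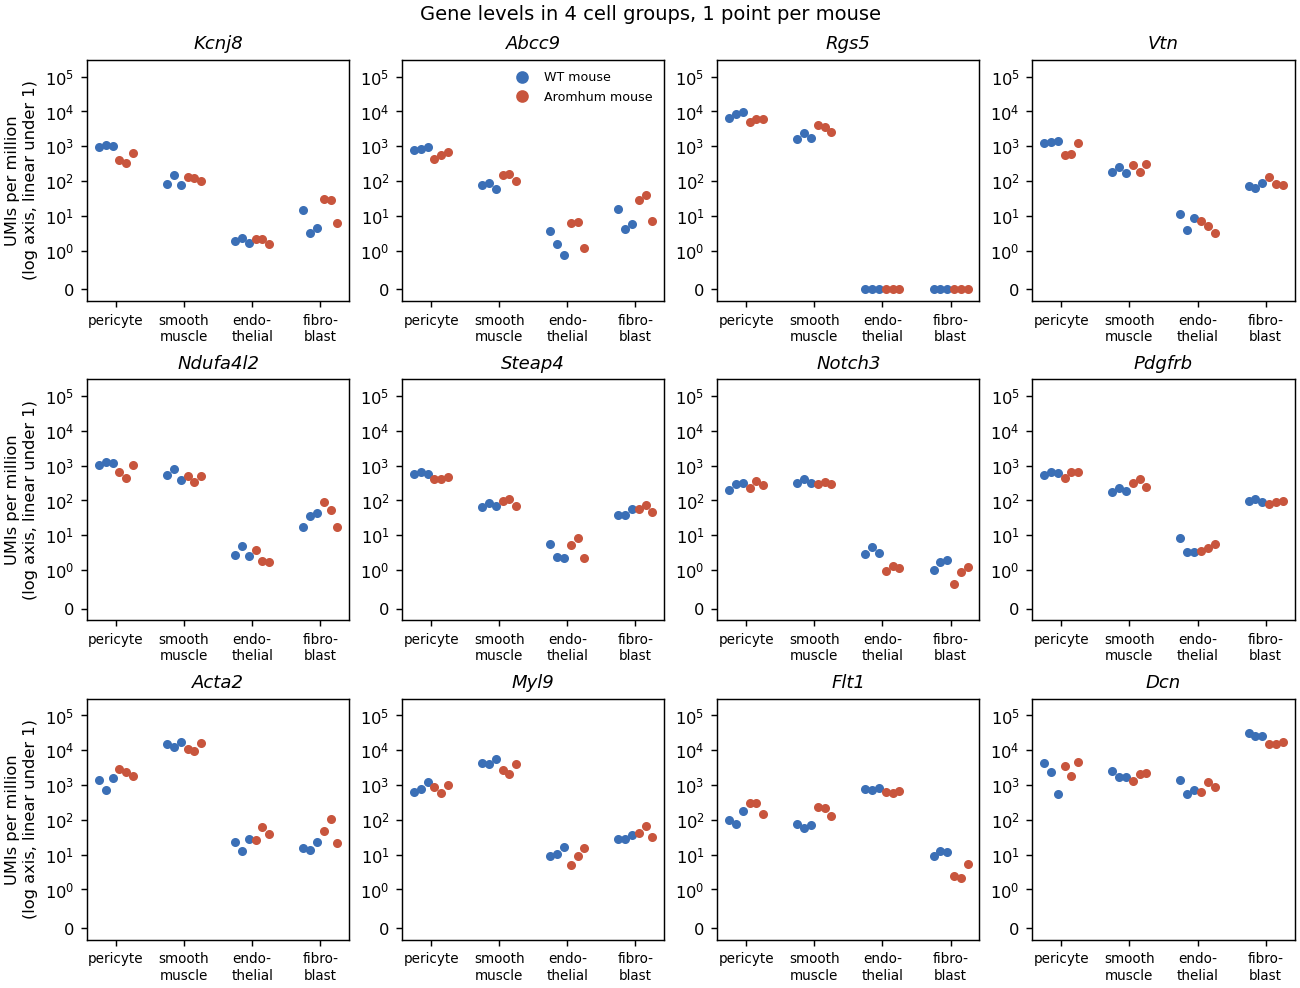
Levels of 12 genes in pericytes, smooth muscle cells, endothelial cells and fibroblasts, in CPM on an axis that is logarithmic above 1 and linear below it, with 1 point per mouse (blue WT, red Aromhum). Kcnj8, Abcc9, Vtn and Steap4 are highest in pericytes in every mouse, Acta2 and Myl9 in smooth muscle cells, Flt1 in endothelial cells and Dcn in fibroblasts. Rgs5 is 0 in endothelial cells and fibroblasts because their rules required it.

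At the edge of the rule, 273 members had exactly 2 of the 4 markers, 273 had 3 and 227 had all 4. Over the barcodes pooled, Vtn stood at 767 CPM in members with 2 markers and 1296 CPM in members with 4, and Dcn at 4497 and 1989 CPM. Another 256 barcodes met the rest of the rule with 1 marker, and held Vtn at 265 CPM and Dcn at 9101 CPM. A further 638 barcodes failed only by a Myh11 UMI. They held Vtn at 624 CPM and Acta2 at 8237 CPM, against 1792 CPM of Acta2 in the members. The smooth muscle rule set no limit on Rgs5 or the 4 markers. Those of the 638 with at least 2 other contractile genes are therefore among the 1617 smooth muscle cells used for comparison. The 13 members with a single Rgs5 UMI had a median of 10004 UMIs and carried Dcn at 12102 CPM.

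Pericytes made up 1.52%, 2.18% and 1.28% of barcodes with at least 1000 UMIs in WT mice and 1.01%, 0.900% and 1.12% in Aromhum mice. All 3 Aromhum shares lay under all 3 WT shares. The means were 1.66% ± 0.467 (SD, n = 3) and 1.01% ± 0.112 (SD, n = 3), a difference of -0.649 percentage points with p = 0.1 in a 2-sided exact permutation test, the lowest p that 3 against 3 mice can give. Set against endothelial barcodes, the level was 8.16 ± 2.85 pericytes per 100 in WT and 7.94 ± 2.00 in Aromhum mice (exact permutation p = 1). The difference was -0.0970 percentage points among barcodes with at most 5% mitochondrial UMIs (p = 0.4, exact permutation test), where 99 members were left. The denominator of the share includes the fibroblast barcodes, which numbered 822 to 2016 per WT mouse and 2133 to 4823 per Aromhum mouse.

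Pericyte barcodes carried many mitochondrial UMIs in both genotypes. The median percent per barcode was 8.62, 12.1 and 8.28 in WT and 7.02, 7.14 and 7.66 in Aromhum mice, and the 2 sets did not overlap. The means were 9.68% ± 2.13 and 7.27% ± 0.344 (SD, n = 3 each), a difference of -2.40 percentage points (exact permutation p = 0.1). Between 81.0% and 96.7% of members per mouse exceeded 5%, and smooth muscle cells had medians of 7.83% to 14.4%. All 13 mitochondrially encoded genes tested had lower fitted levels in Aromhum pericytes (median log2 -0.58), 9 of them at an unadjusted p under 0.05 and 0 at an adjusted one in edgeR. Of all 4861 genes tested, 765 reached the unadjusted level. WT replicate 2 stood apart, with 21.1% of its pericytes over 20% mitochondrial UMIs against 1.71% to 5.21% in the other mice.

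**Figure D2:**
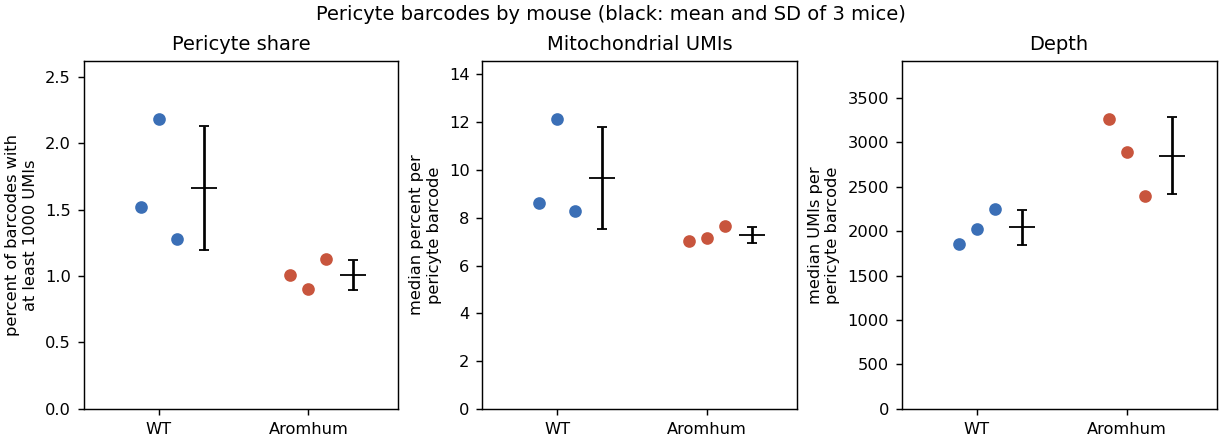
Pericyte share of barcodes with at least 1000 UMIs (percent), median mitochondrial percent per pericyte barcode and median UMIs per pericyte barcode, with 1 point per mouse and the mean and SD of 3 mice in black. Aromhum mice lie under WT mice in the first 2 panels (mean shares 1.01% and 1.66%) and over them in the third.

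Against smooth muscle cells of the same mice, pericytes had lower levels of 20 of 21 contractile genes tested, where 12.2% of all 8662 genes were lower at adjusted p under 0.05 and 9.76% higher. Both groups were defined by counts in these same barcodes, so genes that vary with the defining genes had to differ, and the counts describe the 2 groups as chosen. Of 8662 genes in edgeR's quasi-likelihood test with mouse as a block, 84 were at least 4-fold higher in pericytes and 219 at least 4-fold lower at adjusted p under 0.05. These were 0.97% and 2.53% of the genes tested. At any fold, 845 genes were higher and 1056 lower, with a median log2 difference of 0.02 over all genes.

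Among genes over 100 CPM in either group, the 10 with the widest margins over smooth muscle held 2 of the mural markers listed, Art3 and Steap4. Plxdc1, a plexin-domain membrane protein, ranged from 47.4 to 181 CPM in pericytes and from 5.60 to 16.5 CPM in smooth muscle cells (log2 difference 3.27, adjusted p = 2.45e-07). Impa2, an inositol monophosphatase, averaged 124 ± 44.9 against 12.3 ± 5.23 CPM (log2 3.17). Cpm (carboxypeptidase M) averaged 151 ± 73.9 against 15.8 ± 4.28 CPM and G0s2, an inhibitor of lipolysis, 159 ± 96.4 against 18.7 ± 8.71 CPM. In none of these 4 genes did the 6 pericyte values meet the 6 smooth muscle values. Art3, an ADP-ribosyltransferase of the cell surface, averaged 490.5 ± 316 against 57.9 ± 26.0 CPM (log2 2.81). Enpep (aminopeptidase A), which cleaves angiotensin, averaged 112 ± 38.8 against 16.2 ± 5.76 CPM and the metalloreductase Steap4 520.3 ± 101 against 82.6 ± 18.2 CPM. Pla1a averaged 109.9 ± 19.1 against 18.3 ± 16.7 CPM and Plxdc2 177 ± 43.5 against 27.9 ± 13.4 CPM. In fibroblasts Pla1a and Plxdc2 averaged 212 and 231 CPM, over their pericyte means. Plxdc1, Impa2, Cpm, G0s2, Art3, Enpep and Steap4 averaged 3.81 to 52.3 CPM there. Lyz1 also passed, on 1611 CPM in WT replicate 1 against at most 12.8 CPM in the other 5 mice. It was at 0 CPM in WT replicate 1 without the 106 barcodes.

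Of 27 other mural markers tested, 11 were higher in pericytes than in smooth muscle cells, 5 of them by at least 4-fold, and 6 were lower, 0 of them by at least 4-fold. Over all genes tested, 9.76% were higher and 12.2% lower, and at 4-fold or more 0.97% and 2.53%. Vtn was higher (log2 2.04, adjusted p = 1.57e-05), as were Pdgfrb (log2 1.09) and the transcription factor Ebf1 (777 ± 242 against 418 ± 56.8 CPM, log2 0.72). Notch3 did not pass (log2 -0.36, adjusted p = 0.0569). Nrp1, a co-receptor for semaphorins and vascular endothelial growth factor, averaged 205 ± 31.4 against 77.0 ± 30.5 CPM (log2 1.35).

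The contractile list ran the other way, with 20 of 21 genes tested lower in pericytes, 16 of them by at least 4-fold, and 1 higher. Over all genes tested, 12.2% were lower, 2.53% by at least 4-fold, and 9.76% higher. Tpm2 (tropomyosin) averaged 802 ± 159 CPM in pericytes against 5962 ± 1877 CPM in smooth muscle cells (log2 -2.97), and Myl9 (myosin light chain) averaged 842 ± 234 against 3785 ± 1258 CPM (log2 -2.26). Acta2 and Tagln, which helped to choose the smooth muscle cells, were at 1802 ± 753 and 1489.9 ± 443 CPM in pericytes, against 13687 ± 3173 and 9735 ± 2594 CPM. The member that was higher was Casq2 (calsequestrin), a calcium store protein, at 165 ± 88.8 against 102 ± 49.9 CPM (log2 0.52, adjusted p = 0.0304). The largest deficit among abundant genes was in Pln (phospholamban), the brake of the sarcoplasmic calcium pump, with 0 to 5.02 CPM in pericytes and 141 to 479 CPM in smooth muscle cells (log2 -6.96). Rgs7bp, Sorbs2, Wfdc1, Map3k7cl, Fbxl22, Synm, Nrip2, Tesc and Ccdc3 followed, with log2 differences from -5.41 to -3.42. Of these, Sorbs2 and Synm encode proteins of the cytoskeleton, at 16.1 ± 6.99 and 7.41 ± 5.81 CPM in pericytes against 422 ± 154 and 162 ± 47.4 CPM in smooth muscle cells.

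Of 18 ion channel and calcium genes tested, 12 were lower in pericytes, 7 of them by at least 4-fold, and 1 was higher by at least 4-fold. Over all genes tested, 12.2% were lower and 9.76% higher, and at 4-fold or more 2.53% and 0.97%. The large-conductance calcium-activated potassium channel was low, with its pore Kcnma1 at 8.80 ± 16.6 against 33.1 ± 12.7 CPM and its subunit Kcnmb1 at 5.61 ± 3.11 against 41.4 ± 9.83 CPM (log2 -2.15 and -2.94). The SD of Kcnma1 in pericytes exceeded its mean, so its level was uneven between mice. The background potassium channel Kcnk3 was at 5.63 ± 6.05 against 43.9 ± 11.0 CPM. The ryanodine receptor Ryr2 had no UMI in any pericyte sum and averaged 11.9 ± 9.63 CPM in smooth muscle cells. The chloride channel Ano1, at 107 ± 27.5 against 89.7 ± 25.2 CPM, and the channel subunit Kcne4, at 142 ± 46.3 against 96.2 ± 35.3 CPM, did not pass.

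Of 16 vasoactive receptors tested, 4 were higher and 6 lower in pericytes, against 9.76% and 12.2% of all genes. The endothelin receptor Ednrb averaged 612 ± 291 CPM in pericytes against 175 ± 173 CPM in smooth muscle cells (log2 2.09, adjusted p = 1.12e-04). The other endothelin receptor, Ednra, averaged 95.6 ± 30.7 against 93.1 ± 18.5 CPM and did not pass. The angiotensin receptor Agtr1a averaged 83.3 ± 33.9 against 11.3 ± 6.17 CPM (log2 2.73). Lower in pericytes were Npy1r (neuropeptide Y) at 59.1 ± 8.46 against 163 ± 39.7 CPM and P2rx1 (ATP) at 0.418 ± 1.02 against 43.5 ± 13.8 CPM. Also lower was Ramp1, a subunit of the receptor for calcitonin gene-related peptide, at 104 ± 86.6 against 305 ± 68.2 CPM (log2 -1.88). Soluble guanylate cyclase, the nitric oxide receptor, was present in both groups, with its beta subunit Gucy1b1 at 258 ± 128 against 191 ± 47.6 CPM (adjusted p = 0.454) and its alpha subunit Gucy1a1 lower at 219.9 ± 87.2 against 272 ± 69.6 CPM (log2 -0.47, adjusted p = 0.0116).

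Of 20 basement membrane genes tested, 10 were higher in pericytes and 4 lower, against 9.76% and 12.2% of all genes. The collagen IV chain Col4a1 averaged 1355 ± 329 against 602 ± 245 CPM (log2 1.11), the laminin chain Lama2 109 ± 30.4 against 20.4 ± 7.76 CPM (log2 2.30) and nidogen, Nid1, 369 ± 73.5 against 96.2 ± 45.0 CPM (log2 1.91). Sparc, a collagen-binding protein, was among the most abundant transcripts at 5431 ± 1454 CPM against 2903 ± 1069.8 CPM. Fibroblasts carried Lama2, Nid1 and Sparc at 195, 776 and 8335 CPM. With barcodes high in other types' markers left out of both groups, the log2 differences of Lama2, Nid1 and Sparc were 3.05, 2.15 and 1.04.

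A set of respiratory chain isoforms marked the mural cells. For UMIs counted at the 3′ end, Ndufa4l2 made up 86.6% ± 6.90 (SD, n = 6) of the UMIs of Ndufa4l2 and its ubiquitous paralogue Ndufa4 in pericytes. The share was 54.6% in smooth muscle cells, 0.699% in endothelial cells and 10.3% in fibroblasts. Cox4i2 made up 25.7% ± 6.41 of Cox4i2 and Cox4i1 UMIs in pericytes against 11.8% in smooth muscle cells and 0.142% in endothelial cells, and Higd1b 82.6% of Higd1b and Higd1a UMIs against 51.3% and 0.733%. Cox4i2 and Higd1b belong to the rule, which raises their shares, and Ndufa4l2 does not. By mouse the Ndufa4l2 share was 91.7%, 90.2% and 94.7% in WT and 84.9%, 76.1% and 82.1% in Aromhum pericytes, with no overlap. The levels of 20.8% of all genes tested in pericytes did not overlap between genotypes either. In smooth muscle cells, endothelial cells and fibroblasts the ranges of the Ndufa4l2 share overlapped. These isoform shares were not tested between genotypes, nor was a genotype difference in them tested between cell groups. The Cox4i2 share was 29.1%, 31.0% and 33.2% against 20.2%, 17.0% and 23.6% in pericytes and 13.1%, 18.7% and 11.0% against 9.22%, 8.02% and 10.6% in smooth muscle cells, without overlap in either. The Higd1b share overlapped in pericytes, at 84.1%, 80% and 85.9% in WT and 80.8%, 82.9% and 81.9% in Aromhum mice. In smooth muscle cells the Higd1b share went the other way without overlap, at 34.3%, 44.7% and 29.8% against 76.1%, 66.4% and 56.8%.

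Between genotypes, the question was what changes in pericytes of muscle exposed to the aromatase transgene. Counts were summed over the pericytes of each mouse, and 29 of 4861 genes (0.597%) passed edgeR's quasi-likelihood test at adjusted p under 0.05, 18 higher (0.37%) and 11 lower (0.226%) in Aromhum mice. At an unadjusted p under 0.05 the count was 765. In all 29 the 3 mice of one genotype lay apart from the 3 of the other, as they did in 20.8% of all genes tested. The count rested on the individual mice, falling to 5, 1 or 3 without WT replicate 1, 2 or 3 and to 1 or 9 without Aromhum replicate 1 or 2, and rising to 226 without Aromhum replicate 3. In the 667 barcodes 139 of 3775 genes passed (3.68%), 69 higher (1.83%) and 70 lower (1.85%), and 19 of the 29 were among them, all in the same direction. The 139 hold 5 marker genes whose own counts helped to choose the 667 (Col1a1, Col1a2, Cldn5, Acta1 and Mbp), so their calls there are no test. The 19 were 65.5% of the first list and 13.7% of the second, and the other 10 fell under the count filter in the smaller set. The count in the 667 was 0 without WT replicate 2 or Aromhum replicate 1 or 2 (557, 449 and 535 at an unadjusted p under 0.05), 13 and 25 without WT replicates 1 and 3, and 526 without Aromhum replicate 3, and DESeq2 gave 97.

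The beta subunit of the nitric oxide receptor was lower in Aromhum pericytes. Gucy1b1 (chr3:82032006-82074689, minus strand) read 331, 364 and 411 CPM in WT and 129, 105 and 206 CPM in Aromhum pericytes. The highest Aromhum mouse, replicate 3, lay under the lowest WT mouse, and the difference passed (log2 -1.40, SE 0.26, adjusted p = 0.0495). A UMI was seen in 56.8% of WT and 41.1% of Aromhum pericytes, at median depths of 2002 and 2647 UMIs, and in 3.08% of endothelial cells at 4858 UMIs. Thinned to 1000 UMIs per barcode, these shares were 34.7%, 19.3% and 0.610%. Gucy1a1, its dimer partner and its neighbour in the genome (chr3:82092427-82145789), read 252, 359 and 261 against 126, 156 and 166 CPM. It was lower in every Aromhum mouse without passing (log2 -1.05, adjusted p = 0.0726), and it passed in the 667 (log2 -1.05, adjusted p = 0.0266). The list of 10 nitric oxide and cyclic nucleotide genes tested had 0 higher and 1 lower, Gucy1b1 (0.37% and 0.226% of all genes). The list's median log2 was -0.54 against 0.01 over all genes.

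The other lower genes given here were seen in 12.3% (Pde4c) to 51.7% (Rasl11a) of WT pericytes. In Aromhum pericytes the same 2 genes were seen in 5.21% and 45.1%. Rasl11a, a small GTPase of the Ras family, read 504, 429.6 and 482 CPM in WT and 219, 228 and 228 CPM in Aromhum mice. The 3 Aromhum values lay within 10 CPM of each other (log2 -1.14, adjusted p = 0.0353). Rab3a, a GTPase of vesicle release, read 60.4, 78.6 and 59.2 against 12.8, 17.6 and 14.1 CPM (log2 -2.25, adjusted p = 0.0216) and the adjoining gene Pde4c, a cyclic AMP phosphodiesterase, 42.0, 51.8 and 55.3 against 14.6, 10.0 and 19.7 CPM (log2 -1.81, adjusted p = 0.0495). Both were at or under 20 CPM in every Aromhum mouse. Both also read lower in every Aromhum mouse in smooth muscle cells, endothelial cells and fibroblasts. In smooth muscle cells Rab3a ranged from 25.5 to 32.9 CPM in WT and from 12.4 to 20.8 CPM in Aromhum mice. Rdh5, a retinol dehydrogenase, read 86.6, 63.5 and 71.1 against 18.2, 20.1 and 22.6 CPM (log2 -1.92, adjusted p = 0.0221). Ldhb, the lactate dehydrogenase subunit that lies beside Kcnj8 on chromosome 6, read 318, 202 and 205 against 91.2, 105 and 104 CPM (log2 -1.34, adjusted p = 0.0436), with WT replicate 1 the highest. Cbfa2t3, a transcriptional corepressor, read 105, 144 and 118 against 34.6, 52.7 and 56.4 CPM (log2 -1.46, adjusted p = 0.0394). All 6 genes also passed in the 667 barcodes, with log2 differences of -1.28, -2.39, -1.76, -1.89, -1.17 and -1.44. The antisense gene Gm14964 read 97.1, 112 and 90.8 against 34.6, 47.7 and 33.9 CPM and passed, and reads of the gene on the opposite strand may be among them, since strand use in counting is not given in the sources used here.

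**Figure D3:**
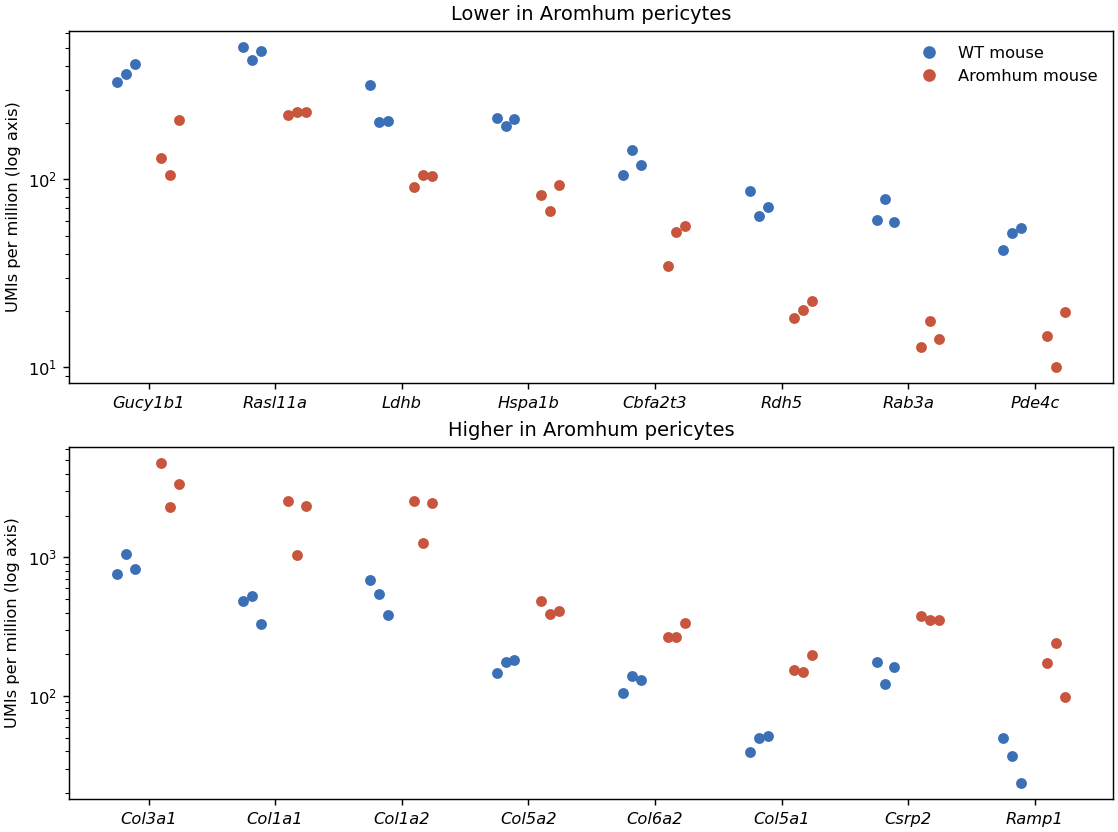
Levels of 8 genes lower and 8 genes higher in Aromhum pericytes, in CPM on a log axis, with 1 point per mouse (blue WT, red Aromhum). In each gene the 3 mice of a genotype lie apart from the 3 of the other, from 331 to 411 against 105 to 206 for Gucy1b1 and from 756 to 1051 against 2301 to 4767 for Col3a1.

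Fibrillar collagens were higher in Aromhum pericytes. Col3a1 (chr1:45311538-45349706, plus strand) read 756, 1051 and 825 CPM in WT and 4767, 2301 and 3385 CPM in Aromhum mice. The lowest Aromhum mouse had more than the highest WT mouse by over 1000 CPM (log2 1.92, SE 0.28, adjusted p = 0.0221). Col1a1 read 488, 523 and 332 against 2559, 1036 and 2358 CPM (log2 2.07, adjusted p = 0.0384) and Col1a2 685, 545 and 387 against 2531, 1259.8 and 2477 CPM (log2 1.88, adjusted p = 0.0384). In these 2 chains of collagen I, Aromhum replicate 2 was the lowest of its group. Of the minor chains, Col5a1 rose by log2 1.74, Col5a2 by 1.28 and Col6a2 by 1.14, with WT levels of 147, 177 and 182 CPM and Aromhum levels of 485, 391 and 412 CPM for Col5a2. Adamts2, which removes the amino propeptide of procollagen, read 47.2, 40.1 and 35.5 against 204, 148 and 324 CPM (log2 2.36, adjusted p = 0.0216), and Fkbp10, a collagen chaperone, 13.1, 13.4 and 11.8 against 45.6, 47.7 and 59.2 CPM (log2 1.86, adjusted p = 0.0394). In Aromhum pericytes the 3 richest barcodes held 27.4% to 34.6% of the UMIs of each of Col3a1, Col1a1, Col1a2 and Adamts2. For Col5a1, Col5a2, Col6a2 and Fkbp10 they held 10.7% to 18.3%. Of 35 interstitial matrix genes tested 6 rose and none fell (0.37% and 0.226% of all genes), with a median log2 of 0.87 against 0.01 over all genes.

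Fibroblast marker levels stood beside these collagens. Their sums, which include Col1a1 and Col1a2, overlapped between genotypes over all members, at 2080.2 to 10101 CPM in WT and 6429 to 17284 CPM in Aromhum mice. In the 667 they were 1204 to 1369 CPM in WT and 2319 to 2673 CPM in Aromhum mice, higher in every Aromhum mouse. In the 667, Col3a1 read 459, 567 and 889 CPM in WT and 1776, 1552 and 1291 CPM in Aromhum mice (log2 1.19, adjusted p = 0.0181), and Col1a1 read 128, 257 and 227 against 775, 493 and 411 CPM. The groups stayed apart. Col1a1 and Col1a2 are on the fibroblast marker list that removed barcodes, so their values in the 667 are a description. Col5a1, which is not on the marker list, kept its size at log2 1.68, and Adamts2 was at 2.81. A Col3a1 UMI was seen in 53.9% of WT and 77.9% of Aromhum pericytes, and in 13.5% of WT and 41.3% of Aromhum endothelial cells. Thinned to 1000 UMIs per barcode, these shares were 35.8% and 57.4% in pericytes and 4.21% and 12.6% in endothelial cells, so the share in endothelial cells moved with genotype too. The 667 held 11 higher and 0 lower of 29 matrix genes (1.83% and 1.85% of all genes tested there), Col1a1 and Col1a2 included, and now with Col6a3 (log2 0.89), Tnc (tenascin C, 2.00), Timp1 (an inhibitor of metalloproteinases, 2.49), Bgn (biglycan, 1.76) and Fn1 (fibronectin, 2.80). Over all members Fn1 had read 556, 157 and 27.6 CPM in WT and 432, 324 and 353 CPM in Aromhum mice, with WT replicate 1 the highest (log2 0.49, adjusted p = 0.750). Tnc, Timp1, Bgn, Fn1 and Adamts2 were uneven in Aromhum mice of the 667, each lowest in replicate 3. Tnc read 545, 441 and 101 CPM there, Timp1 356, 167 and 52.5 CPM, Bgn 642, 480.2 and 197 CPM, Fn1 197, 225 and 65.6 CPM and Adamts2 183, 114 and 52.5 CPM.

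Col3a1 and Col5a1 were also higher in the other cell groups of Aromhum LAM. Col3a1 rose by log2 1.27 in smooth muscle cells, 1.64 in endothelial cells and 0.90 in fibroblasts (adjusted p = 0.0253, 0.0276 and 0.0496), and Col5a1 by 1.21, 1.47 and 0.83. Of all genes tested between genotypes, 2.34% passed in smooth muscle cells, 5.8% in endothelial cells and 10.5% in fibroblasts. The level in fibroblasts went from 5538 to 10514 CPM of Col3a1, over the level in pericytes in both genotypes. The part of fibroblast RNA in the collagen levels of pericytes was not tested.

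Genes of vascular tone were uneven. Ramp1 read 49.9, 36.8 and 23.7 CPM in WT and 173, 241 and 98.7 CPM in Aromhum pericytes. All 3 Aromhum mice were higher (log2 2.10, SE 0.36, adjusted p = 0.0406), and the share of barcodes with a UMI was 5.59% in WT and 26.4% in Aromhum pericytes against 2.21% in endothelial cells. Thinned to 1000 UMIs per barcode, the shares were 1.34%, 11.96% and 0.445%. Smooth muscle cells and fibroblasts, whose barcodes were deeper, had a Ramp1 UMI in 46.0% to 65.7% and 30.9% to 70.2% of barcodes by mouse. Their levels were 231 to 395 and 62.1 to 202 CPM. The part of smooth muscle or fibroblast RNA in the Ramp1 level of pericytes was not tested. In the 667 the log2 difference was 2.83 (adjusted p = 0.0131). Ramp1 was the single receptor of 10 tested that passed over all members (0.37% of all genes were higher and 0.226% lower). Ednrb read 349, 328 and 782 against 793, 1021 and 401 CPM, with WT replicate 3 among the Aromhum values and Aromhum replicate 3 among the WT values (adjusted p = 0.518). Agtr1a read 97.1, 137 and 98.7 against 51.1, 65.2 and 50.8 CPM, lower in each Aromhum mouse, and passed in the 667 only (log2 -1.22, adjusted p = 0.0291, against 0.0795 over all members).

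Of 19 contractile genes tested over all members, none passed in either direction, with 7 at an unadjusted p under 0.05 (765 of all 4861 genes) and a median log2 of 0.23. Acta2 (smooth muscle actin) read 1441, 712 and 1626 CPM in WT and 2870.3, 2389 and 1774 CPM in Aromhum pericytes. The ranges did not overlap, the log2 difference was 0.84 (adjusted p = 0.225), and in the 667 it was 0.95 (adjusted p = 0.0498). At a limit of 5% mitochondrial UMIs, which also dropped WT replicate 2, the lowest of its group, the difference was -0.47 (adjusted p = 0.752), and without that mouse alone it was 0.55. Pcp4l1, also on the contractile list, went the other way, with 94.5, 88.6 and 75.0 CPM in WT and 20.1, 22.6 and 48.0 CPM in Aromhum pericytes. Its ranges did not overlap either (log2 -1.64, adjusted p = 0.0705), and it passed as lower in the 667 (log2 -1.47, adjusted p = 0.0337). Acta2 and Pcp4l1 were the 2 of 17 contractile genes tested that passed in the 667, 1 higher and 1 lower (1.83% and 1.85% of all genes tested there). Both calls were kept without Aromhum replicate 3 and lost without any 1 of the other mice, and that of Pcp4l1 also with DESeq2. Casq2 read 199, 227 and 276 against 51.1, 70.3 and 166 CPM (log2 -1.38, adjusted p = 0.129). Csrp2, a LIM-domain protein of smooth muscle, was outside the list and higher, with 176, 122 and 162 CPM in WT and 376, 354 and 353 CPM in Aromhum pericytes (log2 1.17, adjusted p = 0.0403).

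Of 25 mural markers outside the rule that were tested, Gucy1b1 was the 1 that passed, and it was lower (0.226% of all genes were). This is the same call as that of the nitric oxide list. The median log2 was -0.39 against 0.01 over all genes. Art3 read 548, 844 and 845 CPM in WT and 148, 143 and 415 CPM in Aromhum mice, with every Aromhum mouse lower (log2 -1.75, adjusted p = 0.0916). In the 667 it passed (log2 -1.68, adjusted p = 0.0192). Vtn read 1281, 1312 and 1382 against 554, 605 and 1284 CPM, where Aromhum replicate 3 sat at the WT level and replicates 1 and 2 under it (adjusted p = 0.240). Ndufa4l2 read 1076, 1290.5 and 1196 against 658, 439 and 1024 CPM with the same replicate nearest to WT (adjusted p = 0.197). Pdgfrb averaged 601 CPM in WT and 586 CPM in Aromhum pericytes and Notch3 275 and 292 CPM, with overlapping ranges. Aromhum replicate 3 was also nearest to WT for Kcnj8 and Abcc9, but these genes chose the members, so this adds no support. That mouse also had the lowest median depth of the Aromhum mice, 2393 UMIs per barcode, and the part of depth was not tested.

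Asb5 and Gal were lower in Aromhum pericytes, and most of their UMIs sat in few barcodes. Asb5, a gene expressed by muscle stem cells, read 123, 88.6 and 90.8 CPM in WT and 1.82, 0 and 0 CPM in Aromhum mice (log2 -6.63, adjusted p = 0.00136), with 123 UMIs against 1, a ratio of pooled levels of 130 (exact 95% interval 22.9 to 5170, counting error only). Of the 124 UMIs, 120 lay in 17 members that also had a UMI of a myogenic marker, 3, 10 and 1 of them in WT and 1 in each Aromhum mouse. The remaining 4 UMIs were spread over 3 WT mice and 1 Aromhum mouse. Gal (galanin, a neuropeptide) read 113, 209 and 166 against 27.4, 32.6 and 25.4 CPM (log2 -2.59, adjusted p = 0.00957), and 129 of its 247 UMIs lay in those 17 members. In the 667, Gal read 66.2, 115 and 63.5 against 36.1, 26.1 and 30.6 CPM (log2 -1.55, adjusted p = 0.0254), and Asb5 was under the count filter.

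Krt8 and Krt18, the keratins of simple epithelia and mesothelium, were higher in Aromhum pericytes and were concentrated in the same way. Krt8 read 0, 5.01 and 0 CPM in WT and 67.5, 57.7 and 39.5 CPM in Aromhum mice, and Krt18 read 7.87, 5.01 and 0 against 87.5, 105 and 70.5 CPM (log2 4.31 and 4.03, adjusted p = 0.0221 and 0.00957). Krt8 had 3 UMIs in WT and 74 in Aromhum pericytes, a ratio of pooled levels of 23.4 (exact 95% interval 7.69 to 116). Of 77 Krt8 UMIs 74 and of 121 Krt18 UMIs 117 lay in 17 members that had a UMI of the mesothelial genes Msln or Upk3b. These members numbered 2, 3 and 0 in WT and 3, 6 and 3 in Aromhum mice. Mesothelial markers, a list that holds Krt8 itself, summed to 0 to 187 CPM in WT and 299 to 423 CPM in Aromhum pericytes, with 0 to 8 of 8 genes detected in WT and 8 of 8 in each Aromhum mouse. In the 667 neither keratin passed the count filter.

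**Figure D4:**
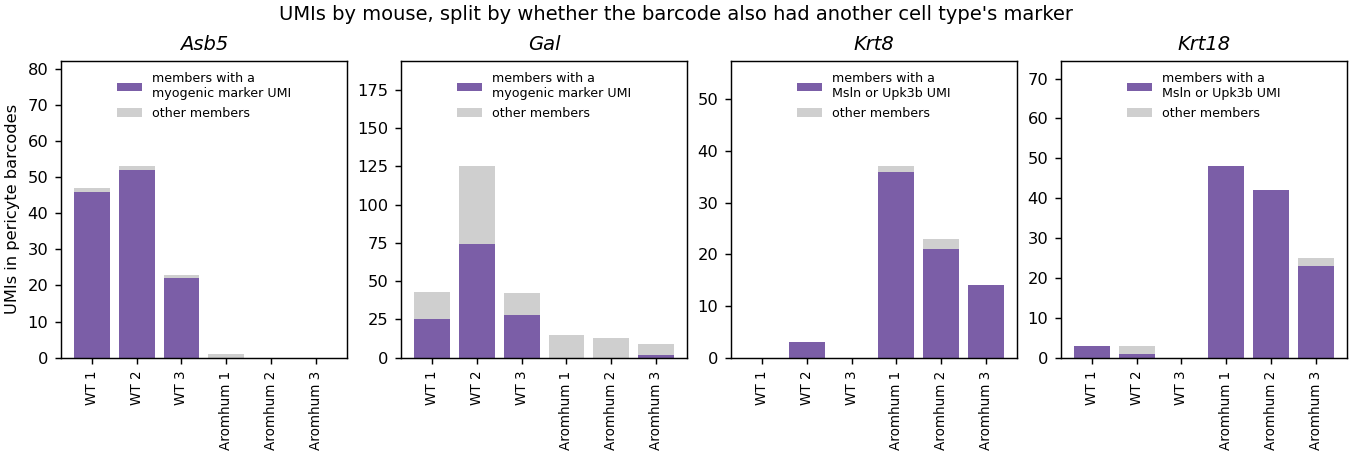
UMIs of Asb5, Gal, Krt8 and Krt18 summed over the pericyte barcodes of each mouse, as bars from 0, split into members that also had a UMI of a myogenic marker (Asb5, Gal) or of Msln or Upk3b (Krt8, Krt18), in purple, and all other members, in grey. Purple makes up 120 of 124 Asb5 UMIs, 129 of 247 Gal UMIs, 74 of 77 Krt8 UMIs and 117 of 121 Krt18 UMIs.

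The complement gene C4b, the protease inhibitor Serpina3n, the Wnt antagonist Sfrp4, the apolipoprotein Apod and the cadherin Cdh11 were higher in Aromhum pericytes by log2 3.78, 3.47, 2.90, 2.25 and 2.15. For each of them the 3 richest barcodes held 39.6% to 59.2% of its UMIs in Aromhum pericytes, and none passed the count filter in the 667. C4b read 23.6, 13.4 and 7.89 CPM in WT and 377, 213 and 73.3 CPM in Aromhum mice, the lowest in Aromhum replicate 3. C4b was also higher in Aromhum smooth muscle cells (log2 3.79, adjusted p = 8.73e-05) and endothelial cells (log2 2.63, adjusted p = 0.0478), and was at log2 2.42 in fibroblasts (adjusted p = 0.0766). Serpina3n passed as higher in smooth muscle and endothelial cells (log2 1.54 and 1.00) and Sfrp4 in endothelial cells (log2 1.59). C4b was the single gene of 22 cytokines, chemokines and adhesion genes tested that passed (0.37% of all genes were higher). Ammecr1, a nuclear protein, read 5.25, 6.69 and 3.95 against 29.2, 30.1 and 36.7 CPM (log2 2.35, adjusted p = 0.0455) and was also under the filter in the 667. Saa3, an acute phase protein, spread widely, with 31.5, 0 and 3.95 CPM in WT and 888, 507 and 2.82 CPM in Aromhum mice, and did not pass (adjusted p = 0.127).

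Immediate early and heat shock genes had a median log2 of -0.50 over 25 tested, with 0 higher and 1 lower over all members (0.37% and 0.226% of all genes). The mitochondrial percent of the members was also higher in every WT mouse (means of 9.68% and 7.27%), and its part in these differences was not tested. The lower gene was Hspa1b, an inducible heat shock protein, at 213, 192 and 209 CPM in WT and 82.1, 67.8 and 93.1 CPM in Aromhum pericytes (log2 -1.40, adjusted p = 0.0221). Every Aromhum mouse lay under every WT mouse, and its reads are uncertain because Hspa1a is a near-identical copy. Fos read 3540.1, 2922 and 3545 against 1369.5, 1368 and 2324 CPM, lower in all 3 Aromhum mice and without passing (adjusted p = 0.0868). In the 667, 8 of 25 passed, all lower (1.85% of all genes tested there), among them Fos (log2 -1.27), Junb (-0.86) and Hspa1a (-1.50). Hspa1b was also lower in Aromhum endothelial cells and fibroblasts (log2 -1.74 and -0.60).

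Signalling lists held few calls. No gene of the Notch (7 tested), platelet-derived growth factor and angiopoietin (6), transforming growth factor beta and bone morphogenetic protein (19), basement membrane (19), hypoxia and glycolysis (18) or interferon (19) lists passed over all members, at unadjusted p under 0.05 in 4, 1, 3, 5, 3 and 8 genes, where 765 of all 4861 genes reached it. In the 667, where 1.83% of all genes tested were higher and 1.85% lower, each of the targets Hes1 (Notch) and Id1 (bone morphogenetic protein) passed and was lower (log2 -1.15 and -1.38). Hes1 had read 449, 630.2 and 553 CPM in WT and 188, 238 and 361 CPM in Aromhum pericytes over all members, with no overlap. The ligand Pdgfa (144, 100.3 and 169.7 against 485, 256 and 257 CPM) and the collagen Col18a1 (49.9, 41.8 and 23.7 against 290, 271 and 42.3 CPM) passed as higher in the 667 (log2 1.72 and 3.18), and the chemokine Cxcl12 as lower (log2 -1.32). Of 14 cytokine, chemokine and adhesion genes tested in the 667, 1 was higher, the chemokine Cxcl2 (log2 1.66), and 2 were lower, Cxcl12 and Tnfaip6 (log2 -0.95), against 1.83% and 1.85% of all genes tested there. Over all members Cxcl2 and Tnfaip6 did not pass (log2 1.35 and -0.37, adjusted p = 0.462 and 0.384). Over all members Col18a1 in Aromhum replicate 3 lay within the WT range, and in the 667 it lay above it, at 29.0, 27.5 and 18.1 CPM in WT and 386, 304 and 43.8 CPM in Aromhum mice. The heme oxygenase Hmox1 read 215, 50.1 and 98.7 against 822, 457 and 245 CPM and passed in the 667 (log2 2.94, adjusted p = 0.0131).

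The estrogen receptor was sparse. Esr1 (estrogen receptor alpha) was at 21.0, 15.0 and 3.95 CPM in WT and 1.82, 2.51 and 33.9 CPM in Aromhum pericytes, with 70.7 CPM in fibroblasts, and in the 667 it was at 0 CPM in WT replicates 1 and 3 and in Aromhum replicate 3 and at most 3.27 CPM in the other mice. A UMI of Esr1 was seen in 2.20% of pericytes at a median of 2208 UMIs. Esr1 did not pass the count filter, and of 10 estrogen receptor and response genes tested (median log2 0.31) none passed, with 2 at an unadjusted p under 0.05. Of all 4861 genes, 765 reached that level.

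**Figure D5:**
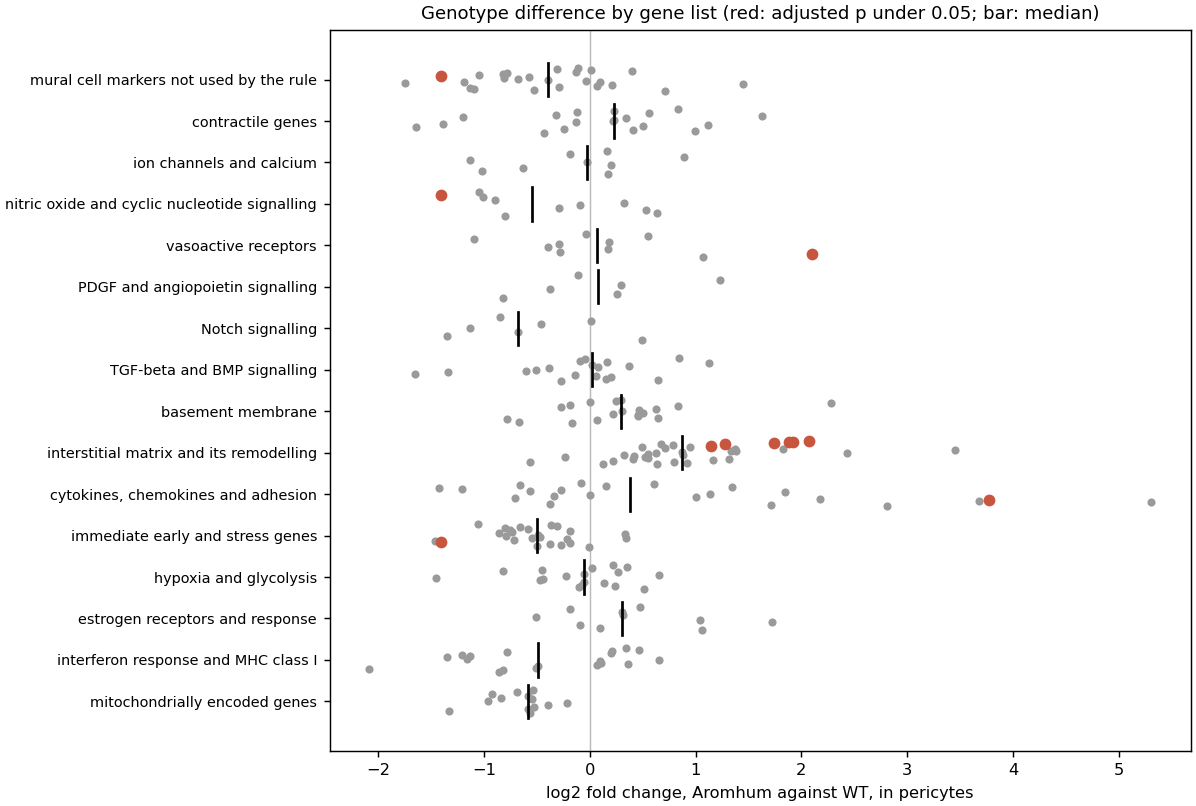
Log2 fold change of Aromhum against WT pericytes for the tested genes of 16 lists, with 1 point per gene, a black bar at the list median and red for adjusted p under 0.05. The interstitial matrix list lies to the right, with a median of 0.87 and 6 red points, and the nitric oxide list has a median of -0.54 with Gucy1b1 in red.

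The 250 bases before the RefSeq start site are printed for 4 genes, in GRCm38.p6, because the rule turns on Kcnj8 and the genotype results on Gucy1b1, Ramp1 and Col3a1. They were searched on both strands for 2 steroid receptor half-sites, GGTCA (estrogen receptor) and AGAACA (androgen and glucocorticoid receptors), and matches are in capitals. The promoters of Kcnj8 (chr6:142571615-142571864, minus strand) and Col3a1 (chr1:45311288-45311537, plus strand) held neither. The promoter of Gucy1b1 (chr3:82074712-82074961, minus strand) held 1 AGAACA match, read as TGTTCT and starting 189 bases before the start site. The promoter of Ramp1 (chr1:91179572-91179821, plus strand) held 1 GGTCA match, read as TGACC and starting 139 bases before it. Of 32851 RefSeq promoters of the same length, 35.2% held GGTCA and 16.1% held AGAACA, so these matches are descriptions of the letters.
Kcnj8: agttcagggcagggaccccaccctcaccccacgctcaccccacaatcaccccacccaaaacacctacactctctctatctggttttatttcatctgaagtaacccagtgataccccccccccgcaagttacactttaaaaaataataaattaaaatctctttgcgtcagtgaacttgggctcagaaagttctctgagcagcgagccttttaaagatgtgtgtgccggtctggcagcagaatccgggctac
Gucy1b1: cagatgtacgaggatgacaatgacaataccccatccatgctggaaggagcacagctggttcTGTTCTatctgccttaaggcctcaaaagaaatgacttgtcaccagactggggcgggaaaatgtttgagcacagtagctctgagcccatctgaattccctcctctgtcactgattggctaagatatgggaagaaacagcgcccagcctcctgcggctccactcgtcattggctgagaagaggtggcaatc
Ramp1: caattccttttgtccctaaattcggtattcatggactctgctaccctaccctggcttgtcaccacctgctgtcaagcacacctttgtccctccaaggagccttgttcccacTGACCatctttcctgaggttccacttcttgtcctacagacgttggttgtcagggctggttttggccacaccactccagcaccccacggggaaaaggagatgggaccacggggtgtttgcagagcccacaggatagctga
Col3a1: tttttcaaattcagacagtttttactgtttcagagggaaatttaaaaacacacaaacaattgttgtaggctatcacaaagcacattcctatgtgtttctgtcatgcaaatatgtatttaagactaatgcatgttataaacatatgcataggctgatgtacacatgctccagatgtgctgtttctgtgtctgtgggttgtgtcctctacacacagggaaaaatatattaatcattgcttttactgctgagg

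Whether a genotype difference was particular to pericytes was tested as an interaction with the smooth muscle cells and with the endothelial cells of the same mice. Against smooth muscle cells 6 of 8662 genes passed (0.0693%), 4 with a larger value in pericytes (0.0462%) and 2 with a smaller one (0.0231%), and 681 had an unadjusted p under 0.05. The count was 0 without WT replicate 1 or Aromhum replicate 1, 2 without WT replicate 3 or Aromhum replicate 2, 11 without WT replicate 2 and 39 without Aromhum replicate 3. Csrp2 had a log2 interaction of 1.28 (SE 0.20, adjusted p = 0.0394), with 542 CPM in WT and 561 CPM in Aromhum smooth muscle cells. Its levels went from a WT mean of 274 to an Aromhum mean of 426 CPM in endothelial cells and from 287 to 513 CPM in fibroblasts (genotype log2 0.64 and 0.80, adjusted p = 0.0825 and 0.116), and its interaction with endothelial cells did not pass (log2 0.58, adjusted p = 0.541). Cavin3, a protein of caveolae, had 1.33 and Igfbp4, which binds insulin-like growth factors, 2.22. For the 667, smooth muscle cells high in other types' markers were left out too. There, 61 of 7704 genes passed (0.792%), 30 with a larger value in pericytes (0.389%) and 31 with a smaller one (0.402%). These 3 genes were among them (log2 0.96, 1.11 and 1.75). Cavin3 read 121, 110.3 and 130.3 against 243, 166 and 293 CPM and Igfbp4 126, 125 and 75.0 against 563, 213 and 367 CPM in pericytes, against 594 to 485 and 467 to 347 CPM in smooth muscle cells. Asb5 (-6.31), Gal (-2.91) and Sfrp4 (3.20) were the other 3, and each did not pass in the 667 or was not tested there.

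In the 667, the genotype effects on Ramp1 and Ednrb differed between pericytes and smooth muscle cells. Ramp1 had an interaction of 1.67 over all members (adjusted p = 0.117) and 2.12 in the 667 (adjusted p = 0.00253), with 247 CPM in WT and 363 CPM in Aromhum smooth muscle cells. Ednrb rose in smooth muscle cells (log2 2.38, adjusted p = 0.0307), and its interaction was -1.57 (adjusted p = 0.0912) and -1.73 in the 667 (adjusted p = 6.88e-04). Gucy1b1, Gucy1a1 and Rasl11a had interactions of -0.70, -0.29 and -0.11 with adjusted p of 0.482, 0.808 and 0.949. Rasl11a was itself lower in Aromhum smooth muscle cells (log2 -0.96, adjusted p = 0.0446), and Gucy1b1 was at -0.66 there (adjusted p = 0.0645). Rdh5 was at 0.03 in smooth muscle cells, and its interaction of -1.81 passed in the 667 only (-1.89, adjusted p = 0.0290).

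Against endothelial cells 0 of 12195 genes passed in edgeR, with 902 at an unadjusted p under 0.05 and 0 also with RLE size factors. For the 667, endothelial cells high in markers of types other than their own were left out too. There, 189 of 11723 genes passed (1.61%), 91 with a larger value in pericytes (0.776%) and 98 with a smaller one (0.836%). Among them were Gucy1b1 (log2 -1.06, adjusted p = 0.0133), Rasl11a (-0.85), Ramp1 (2.11) and Ednrb (2.06), of which Gucy1b1 and Ramp1 were under 11 CPM on average in endothelial cells of either genotype. Ednrb went from 76.9 to 32.6 CPM in endothelial cells.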

How the data were processed

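Single-cell UMI counts of LAM from 3 WT and 3 Aromhum mice were deposited by the authors as 1 raw count table of 16494 genes and 63647 barcodes, with 517946965 UMIs in all. The submitters' processing notes name Cell Ranger 3.0.2 and the build mm10. Depth per mouse is given with the results, and intervals cover counting error only. Members and gene lists were chosen with earlier results of these data known.

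UMIs were summed over the members of each mouse, and genotypes were compared with edgeR 4.0.16 (R 4.3.3) by the quasi-likelihood test with TMM size factors, filterByExpr and Benjamini-Hochberg adjustment at 0.05. Pericytes were compared with smooth muscle cells with mouse as a block, and differences between cell groups with an interaction term. Where the 667 were set against another cell group, that group was filtered for other types' markers too. Smooth muscle markers were not part of these filters. The genes of the rules were left out of these counts, but the marker genes that chose the 667 were not. Shares and mitochondrial percents were compared by exact permutation tests. The script was tested on simulated data, where the genotype test on 4866 genes recovered 34% of 2-fold and 92% of 4-fold changes, and the interaction with smooth muscle cells on 8672 genes 12% and 62%. DESeq2 1.42.0 was an alternative, with limits on mitochondrial UMIs (5% and 20%), genes (2500), markers and doublets. Scrublet (scanpy 1.11.5) marked 0 barcodes in WT libraries at its automatic threshold, so the 5% with the highest scores per library were marked (19 pericytes) and left out as an alternative.

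The genes named were those of the rule, the listed genes past the test or over 100 CPM and listed receptors and channels, the 10 higher and 10 lower between genotypes with the smallest p over 20 CPM, and the 10 with the largest fold on each side against smooth muscle cells over 100 CPM; others were named after their values were seen. Positions are from GENCODE vM21 on GRCm38. Strand use in counting is not given in the sources used here. The authors processed 1 littermate of each genotype per date, but the labels do not say that replicate numbers mark those dates. Some items are not reported here.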

Additional observations from a re-analysis of the deposited data

Results flagged for a closer look

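In 6 genes the genotype difference in pericytes differed from that in smooth muscle cells of the same mice by the interaction term of edgeR's quasi-likelihood test, each with adjusted p = 0.0394. The log2 differences between the 2 genotype effects were -6.31 for Asb5, -2.91 for Gal, 1.33 for Cavin3, 1.28 for Csrp2, 2.22 for Igfbp4 and 3.20 for Sfrp4. Barcodes high in other cell types' markers were then left out of both groups. Cavin3, Csrp2 and Igfbp4 passed at 1.11, 0.96 and 1.75 (adjusted p = 0.0231, 0.0382 and 0.0231). Gal was at -2.28 (adjusted p = 0.0736), Sfrp4 was at -1.42 (adjusted p = 0.699) and Asb5 was under the count filter.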

How the results depend on the processing

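The difference in pericyte share lay between -0.839 and -0.388 percentage points when 1 mouse was left out, and that in mitochondrial percent between -3.10 and -1.17. The 29 genes called between genotypes became 72 with DESeq2, 392 with no count filter, 0 at a limit of 5% mitochondrial UMIs (217 at an unadjusted p under 0.05, with WT replicate 2 dropped for its 7 barcodes), 19 at a limit of 20%, 10 at a limit of 2500 genes and 46 without barcodes marked by Scrublet. Leaving out 1 mouse gave 1 to 226 calls. At least 3 of the 4 markers gave 21 calls, 12 of them among the 29. Of alternatives chosen after seeing the data, the 667 barcodes gave 139 calls (97 with DESeq2, and 0 to 526 without 1 mouse), members chosen after thinning gave 203 and every member thinned to 1000 UMIs gave 19. Of the 29 genes, 11 were among the 203 (4943 genes tested) and 6 among the 19 (1740 genes tested). The 6 interactions with smooth muscle cells became 13 with DESeq2, 182 with no count filter, 0 to 39 without 1 mouse and 61 in the 667. The 0 interactions with endothelial cells became 156 with no count filter and 189 in the 667. Acta2 turned to -0.47 at the limit of 5% mitochondrial UMIs, also without WT replicate 2 (adjusted p = 0.752), and the interaction of Sfrp4 to -1.42 in the 667. Fn1 (0.49, not past the test) turned to -0.23 at that limit, -0.23 with at least 3 of the 4 markers and lay between -0.022 and 1.81 without 1 mouse (2.46 to 3.14 in the 667). Of members chosen after thinning, Cxcl2 turned to -0.16 and Tnfaip6 to 0.14, the latter also to 0.11 with every member thinned and at most 1 UMI of a gene. The cause of these changes was not tested. The 303 genes called at 4-fold against smooth muscle cells stayed between 260 and 395.

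With the replicate number as a block, 72 genes were called between genotypes, 25 of them shared with the 29. Deviations of same-numbered mice correlated at 0.251, -0.185 and 0.00312, so the numbers were not taken as pairs, and of the 3 numbers only 1 had its WT and Aromhum mouse correlate best with each other. Pairing by processing date was not run, since the labels do not tie mice to dates.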

Other observations

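Of 19 interferon genes tested over all members none passed, with 8 at an unadjusted p under 0.05 (765 of all 4861 genes). Irf1, an interferon-induced transcription factor, read 388, 284 and 308 CPM in WT and 159, 108 and 203 CPM in Aromhum mice, with every Aromhum mouse lower (log2 -1.13, adjusted p = 0.0916 in edgeR's test). It passed in the 667 barcodes that were not high in other types' markers (smooth muscle markers not used), an alternative chosen after seeing the data (log2 -1.19, adjusted p = 0.0337). Isg15, a ubiquitin-like protein, passed there too (log2 -1.12, adjusted p = 0.0433). Of 18 interferon genes tested in the 667, 3 were lower and 0 higher (1.85% and 1.83% of all genes tested there), the other being Igtp. Ebf1, a transcription factor of mural cells, read 874, 1015 and 1022 against 401, 723 and 629 CPM and did not pass in either set (adjusted p = 0.138 and 0.0596).

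Some genes with lower levels in Aromhum pericytes adjoined each other in the genome, which was noticed after their values were seen. Gucy1b1 lies beside Gucy1a1 on chromosome 3 and Pde4c beside Rab3a on chromosome 8. How often genes that pass would adjoin was not tested.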
